A study of Homo sapiens with 6 samples.

Results

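The genes described here encode the pre-mRNA splicing regulators of the heterogeneous nuclear ribonucleoprotein (hnRNP) and serine/arginine-rich (SR) families, together with a few other regulators of exon choice. Members were taken by gene name alone: every HNRNP and SRSF gene, PTBP1, PTBP2 and PTBP3, TRA2A and TRA2B, RBFOX2, QKI, MBNL1, MBNL2, MBNL3 and CELF1, with pseudogenes left out. This gave 44 of the 32029 genes listed: 21 hnRNP genes, 12 SR genes, 3 PTBP genes, 2 TRA2 genes and 6 genes of the RBFOX, QKI, MBNL and CELF families. RNA was sequenced from SW480, an established human colorectal cancer cell line, 48 hours after transfection with a control siRNA (siControl, labelled siNC, genotype WT, n = 3) or with siRNA against the transcription factor ZEB1 (siZEB1, genotype ZEB1 knockdown, n = 3). All samples came from this single line, and the sequences of the siRNAs are not given in the sources used here. The 3 samples of a group are described as biological replicates and are called cultures below, and the study calls the groups independent, although nothing in the labels says how separate the transfections were. The p-values measure only the spread between these samples.

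SR proteins bind exonic enhancers through RNA recognition motifs and recruit the spliceosome through arginine- and serine-rich domains, which SRPK and CLK kinases phosphorylate. Many hnRNP proteins coat nascent transcripts and often oppose SR proteins at silencer elements, so the balance between the families sets which exons are kept. ZEB1 is a zinc-finger repressor that binds CACCTG-type E-boxes and drives the epithelial-mesenchymal transition, during which the splicing of many transcripts shifts. The gene counts used here measure total RNA of a gene and carry no information on exon inclusion, isoforms or protein.

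ZEB1 itself was counted at 1247, 1276 and 908 reads in the siControl cultures and at 136, 132 and 162 reads after knockdown. The level fell from 54.2 ± 6.24 to 7.51 ± 0.843 CPM (counts scaled to a library of 1000000, SD, n = 3 each), a log2 difference of -2.85 (SE 0.11, adjusted p = 4.85e-12, edgeR). Total counts ranged from 19040636 to 22357633 per culture. Of 10 colon epithelium markers, 6 were at 1 CPM or more, with a summed level of 4810 to 5440 CPM in siControl cultures and 5330 to 6000 CPM with siZEB1. KRT8 and KRT18 carried most of the sum and moved little, at 3455 ± 160 and 1418 ± 150 CPM in siControl and 3534 ± 200 and 1460 ± 124 CPM in siZEB1 cultures. EPCAM (54.7 ± 2.29 to 454 ± 14.1 CPM), KRT19 (72.3 ± 1.19 to 223 ± 17.1 CPM) and VIL1 (4.08 ± 0.503 to 20.7 ± 1.49 CPM) were higher in siZEB1 cultures, and CDX2 (103 ± 7.08 to 41.8 ± 2.66 CPM) was lower. The part of these epithelial markers in the splicing factor results was not tested. The summed levels of the leukocyte, endothelial and hepatocyte marker lists were at most 1.17, 2.72 and 0.134 CPM in any culture. The fibroblast list was led by COL1A1, at 10.2 ± 0.572 CPM in the siControl and 8.70 ± 1.11 CPM in the siZEB1 cultures. KRT20, a defining colon marker, was under 1 CPM, as were CDH17 and LGALS4 of the same list. CDX1, also on that list, was not among the genes counted. In bulk RNA of this kind, fewer cells with a transcript and less of it per cell cannot be told apart.

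HNRNPAB and HNRNPF fell strongly after ZEB1 knockdown, and none of the other 40 tested members changed by more than 1.5-fold. HNRNPAB, an abundant hnRNP of the A/B and D group with roles in splicing and RNA transport, fell to 35.0% of its siControl level. HNRNPF, which binds G-rich tracts beside regulated exons, fell to 48.5%. Among SR genes, SRSF4 and SRSF8 rose and SRSF7 and SRSF10 fell, each by less than 1.5-fold.

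Both strongly reduced genes hold the 7-base word GAACACA in their 3′UTR. The word was picked in an earlier scan of these same cultures for 3′UTR words shared by genes that fell, so its presence in a fallen gene is not independent of the fall. By the 3′UTR of 1 GENCODE transcript for each gene (GRCh38), 4 of the 42 tested splicing factor genes held the word, and 30 bases around each match are shown 5′ to 3′ on the transcribed strand, with the word in capitals.
HNRNPAB: ggatatggagtGAACACAattatgtaccaa
HNRNPF: cacatcacagtGAACACActggggagacgt
HNRNPU: cctggaaagatGAACACAatactgcatctg
CELF1: tgtatttctgtGAACACAcagccagtccgt
The printed HNRNPAB bases lay at chr5:178210668-178210697 on the plus strand, in the 540-base 3′UTR of HNRNPAB-202, with the word starting at base 56 after the stop codon. The printed HNRNPF bases lay at chr10:43386310-43386339 on the minus strand, with the word starting at base 309 of the 1020-base 3′UTR of HNRNPF-204. The printed bases of HNRNPU (chr1:244850877-244850906) and CELF1 (chr11:47468479-47468508) were also on the minus strand, in 3′UTRs of 4153 and 647 bases. In all 4 genes the base before the word was T.

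The repressor's own recognition word was the other sequence of interest. In RefSeq promoter windows reaching from 250 bases before to 50 bases after each start (GRCh38.p14), CACCTG was searched on both strands. It lay in windows of 4 of the 39 splicing factor genes that have a window in the table (10.3%), against 24.1% of all 27305 genes with a window and 24.3% of those tested. The 4 matches are shown with 30 bases on the gene's own strand and the word, or its reverse complement CAGGTG, in capitals.
HNRNPF: gccacggggccgCACCTGcaggcacgcgtt
HNRNPDL: gacacttctgcaCACCTGgaactggaaaag
HNRNPM: gagcggcgggcgCAGGTGttactggttgcg
SRSF11: cgcagtctcttcCACCTGctttgaaaccag
The printed bases lie at chr10:43397340-43397369 for HNRNPF (minus strand, match 80 bases before the start), chr4:82430644-82430673 for HNRNPDL (minus), chr19:8444897-8444926 for HNRNPM (plus) and chr1:70205471-70205500 for SRSF11 (plus). The 80 bases count from the start of 1 of 2 HNRNPF windows, and the other (chr10:43408808-43409107) held no match. HNRNPF fell and the other 3 genes rose. The HNRNPAB window held no match, and HNRNPA1, QKI, RBFOX2, SRSF2 and TRA2A had no window in the table. A match is a description of letters and not of bound ZEB1, which was not measured in these files.

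Of the 44 genes, 42 passed the filter on low counts, and 19 of them (45.2%) were called at an adjusted p under 0.05 in edgeR's quasi-likelihood test, against 40.2% of all 14996 genes tested. By direction, 12 rose (28.6%, against 19% of all genes) and 7 fell (16.7%, against 21.2%). Splicing factor genes are abundant, with a median of 229 CPM against 19.2 CPM for all genes tested, and the share of higher calls was larger among abundant genes. Among genes with a mean of at least 100 CPM, 25.7% were higher and 22% lower, and of the 33 splicing factor genes in that range 10 were higher (30.3%) and 7 lower (21.2%). The shares of called genes therefore lay near the background for genes of like abundance.

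The sizes were small. The median log2 fold change of the 42 genes was 0.02, with a median absolute value of 0.15, against 0.25 for all genes tested and 0.15 for genes of at least 100 CPM. Under the rule of a change past 1.5-fold at an unadjusted p under 0.05, no gene was higher and 2 were lower, HNRNPAB and HNRNPF. Of all genes tested, 7.21% passed this rule as higher and 9.35% as lower, and of genes with at least 100 CPM 2.36% and 3.7%. At 21 of the 42 genes the siControl and siZEB1 cultures did not overlap, against 49.5% of all genes tested.

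**Figure D1:**
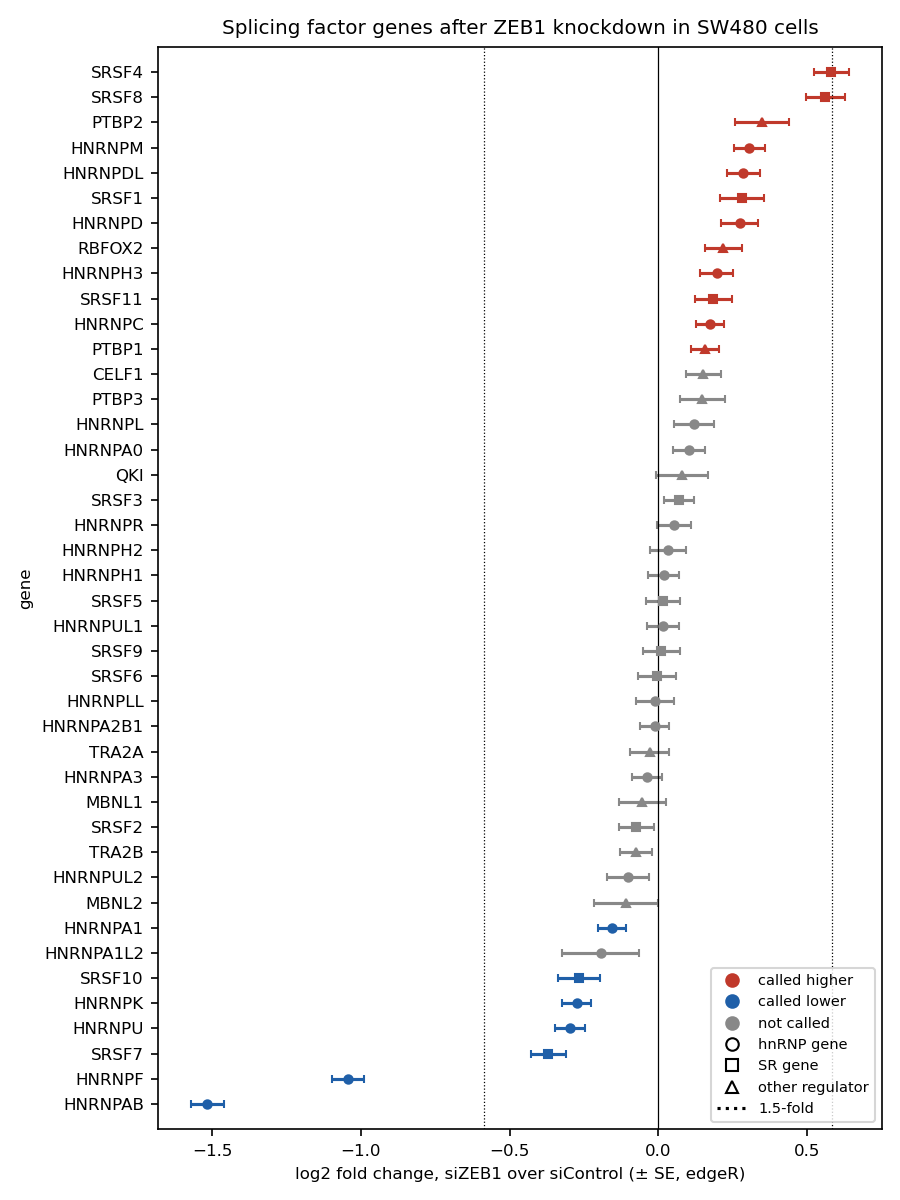
Log2 fold change (siZEB1 over siControl, ± SE from edgeR) of the 42 tested splicing factor genes, coloured by call and shaped by family, with dotted lines at 1.5-fold. HNRNPAB (-1.52) and HNRNPF (-1.04) stand left of the dotted line, and the other 40 genes lie between -0.37 and 0.58.

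HNRNPAB (ENSG00000197451, chromosome 5 from 178204507 to 178211163, plus strand) had 701, 674 and 724 CPM in the 3 siControl cultures and 251, 246 and 238 CPM in the siZEB1 cultures. Every siZEB1 value lay far below every siControl value. The log2 fold change was -1.52 (SE 0.054, adjusted p = 2.45e-12, edgeR), from 13957 to 15093 reads with siControl and 4549 to 4732 with siZEB1. In the 6 fits that each left out 1 culture it ran from -1.54 to -1.49. PHYKPL on the opposite strand overlaps 9.14% of its exonic bases, and whether the authors counted by strand is not stated. PHYKPL had 23.1 ± 1.01 CPM in siControl cultures and 15.4 ± 0.948 CPM with siZEB1 (log2 fold change -0.58, adjusted p = 5.28e-05, edgeR). The part of this overlap in the HNRNPAB values was not tested.

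Per kilobase of exonic sequence, HNRNPAB was the second highest of the 44 genes with siControl, at 326 CPM per kilobase, after HNRNPA1 at 368. With siZEB1 it stood at 114 CPM per kilobase, beside HNRNPA3 at 114 and HNRNPM at 113. The order per kilobase, and every per-length ratio below, rests on the union of all annotated exons, 2144 bases for HNRNPAB and 6981 for HNRNPD. By CPM alone, HNRNPAB had 700 in siControl cultures, below HNRNPA2B1, HNRNPA1, HNRNPU, HNRNPC, HNRNPK, PTBP1, HNRNPH1 and HNRNPA3. The closest relatives of HNRNPAB moved the other way. HNRNPD (AUF1), which binds AU-rich elements in 3′UTRs, had 481, 420 and 477 CPM in siControl cultures and 581, 550 and 534 CPM with siZEB1, a log2 difference of 0.27 (SE 0.061, adjusted p = 0.0017, edgeR). HNRNPDL had 247, 239 and 259 CPM and then 297, 308 and 304 CPM, a log2 difference of 0.28 (SE 0.055, adjusted p = 5.40e-04). In neither gene did the groups overlap. The per-length ratio of HNRNPAB to HNRNPD accordingly went from 4.97 ± 0.242 to 1.44 ± 0.0278, and that of HNRNPAB to HNRNPDL from 7.19 ± 0.0592 to 2.07 ± 0.0823 (SD, n = 3 each, no test made).

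HNRNPF (ENSG00000169813, chromosome 10 from 43385617 to 43409166, minus strand) had 702, 679 and 640 CPM in siControl cultures and 321, 324 and 336 CPM with siZEB1. The groups were far apart, and the log2 fold change was -1.04 (SE 0.054, adjusted p = 2.41e-10, edgeR), with a range of -1.08 to -1.01 when 1 culture was left out. HNRNPH1, HNRNPH2 and HNRNPH3 are its paralogs and share its affinity for G-rich RNA. HNRNPH1 was at 753 ± 22.8 CPM in siControl cultures and 763 ± 30.7 CPM with siZEB1, a log2 difference of 0.02 (SE 0.052, adjusted p = 0.817), and HNRNPH2 was at 0.03 (adjusted p = 0.703). HNRNPH3 rose from 249, 227 and 237 CPM to 273, 271 and 273 CPM, a log2 difference of 0.20 (adjusted p = 0.0102), a call that was lost without siControl replicate 2 (0.16, adjusted p = 0.0766, edgeR). HNRNPF over HNRNPH1, per length, went from 2.60 ± 0.0685 to 1.25 ± 0.0236. In GENCODE, RPL36A-HNRNPH2, a readthrough gene on the same strand, overlaps 16.3% of HNRNPH2. The HNRNPH2 count may be split only if the authors' annotation, which is not given, also held that gene. The deposited counts list no gene named RPL36A-HNRNPH2.

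**Figure D2:**
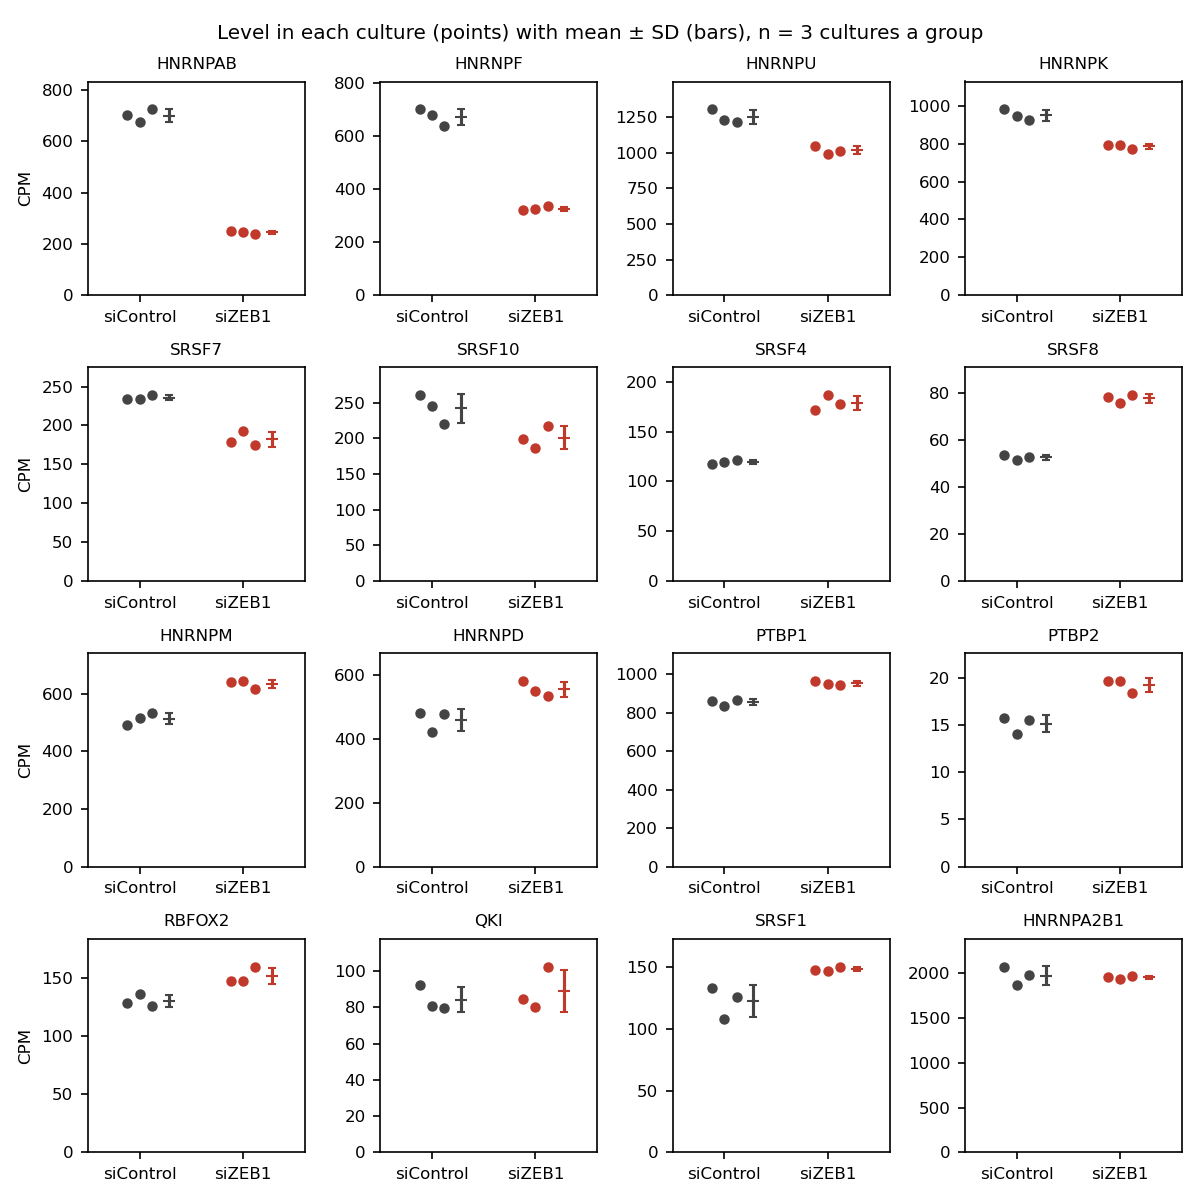
Level in CPM of 16 splicing factor genes in each culture (points) with mean ± SD (bars), n = 3 a group, each axis starting at 0. The siZEB1 points of HNRNPAB (238 to 251 CPM) and HNRNPF (321 to 336 CPM) lie far below the siControl points, SRSF4 and SRSF8 lie above theirs, and the groups overlap at QKI and HNRNPA2B1.

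The other 3 hnRNP genes that fell were HNRNPU, HNRNPK and HNRNPA1, each by less than 1.5-fold. HNRNPU (SAF-A), a scaffold protein that binds chromatin and RNA, had 1303, 1229 and 1213 CPM in siControl cultures and 1046, 993 and 1010 CPM with siZEB1, a log2 difference of -0.30 (SE 0.050, adjusted p = 1.39e-04, edgeR). HNRNPK, a KH-domain protein that binds C-rich RNA, had 981, 948 and 923 CPM and then 793, 793 and 770 CPM, a log2 difference of -0.28 (SE 0.049, adjusted p = 2.52e-04, edgeR). Neither pair of groups overlapped. COX20 lies on the opposite strand over 15.6% of the exonic bases of HNRNPU, and was under 2 CPM. HNRNPA1, a silencer-binding protein, had 1941, 1819 and 1869 CPM and then 1722, 1705 and 1629 CPM, a log2 difference of -0.16 (SE 0.048, adjusted p = 0.0153, edgeR). Its groups did not overlap, but the call was lost without siControl replicate 1 (-0.13, adjusted p = 0.0626, edgeR). HNRNPA1 has 28 pseudogene rows in the files, whose summed reads were 1903, 1891 and 1634 with siControl and 1385, 1345 and 1396 with siZEB1, or 4.45% of the parent's reads.

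Besides HNRNPD, HNRNPDL and HNRNPH3, HNRNPM and HNRNPC rose. HNRNPM, which binds GU-rich RNA, had 493, 515 and 533 CPM in siControl cultures and 641, 645 and 618 CPM with siZEB1, a log2 difference of 0.30 (SE 0.052, adjusted p = 1.70e-04, edgeR). HNRNPC, which binds U-rich tracts, had 1025, 1005 and 1010 CPM and then 1142, 1164 and 1121 CPM, a log2 difference of 0.17 (SE 0.047, adjusted p = 0.00706, edgeR). Both sets of siZEB1 values lay above all siControl values. Of the 21 hnRNP genes, 5 rose (23.8%, against 19% of all genes), 5 fell (23.8%, against 21.2%) and 11 were not called, so both shares lay near the background, with a median of 0.02 on the log2 scale.

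The hnRNP genes that were not called included the most abundant by CPM. HNRNPA2B1, a close relative of HNRNPA1, had 2074, 1864 and 1979 CPM in siControl cultures and 1961, 1934 and 1968 CPM with siZEB1 (log2 fold change -0.01, SE 0.049, adjusted p = 0.860), and the groups overlapped. The other hnRNP genes not called, besides HNRNPH1 and HNRNPH2, were HNRNPL (0.12), HNRNPA0 (0.10), HNRNPR (0.05), HNRNPUL1 (0.02), HNRNPLL (-0.01), HNRNPA3 (-0.04), HNRNPUL2 (-0.10) and HNRNPA1L2 (-0.19). HNRNPA1L2 had 6.97 ± 0.521 CPM in siControl cultures and may share reads with HNRNPA1. In GENCODE, 44.1% of the exonic bases of HNRNPUL2 are shared with the readthrough gene HNRNPUL2-BSCL2. Whether the authors' annotation also held that readthrough gene is not given, and the deposited counts list no gene of that name. HNRNPA0 was not called although its siZEB1 values, 406 to 444 CPM, all lay above its siControl values, 389 to 401 CPM. Summed over the 21 genes, hnRNP transcripts were at 12919 ± 365 CPM in siControl cultures and 11994 ± 147 CPM with siZEB1.

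Of 12 SR genes, 11 were tested. Of these, 4 rose (36.4%, against 19% of all genes and 25.7% of genes with at least 100 CPM), 2 fell (18.2%, against 21.2% and 22%) and 5 were not called. SRSF4, a large SR protein, had 117, 120 and 121 CPM in siControl cultures and 172, 187 and 178 CPM with siZEB1, a log2 difference of 0.58 (SE 0.060, adjusted p = 7.64e-07, edgeR). SRSF8, which arose as a retrocopy of SRSF2 and may share reads with it, had 53.5, 51.4 and 52.6 CPM and then 77.9, 75.6 and 78.9 CPM, a log2 difference of 0.56 (SE 0.065, adjusted p = 2.78e-06, edgeR). For both genes the groups were well separated, and these were the largest rises among the 44 genes. Their relatives SRSF6 (-0.0049, adjusted p = 0.958) and SRSF2 (-0.07, adjusted p = 0.342) were not called in the same test. The per-length ratio of SRSF4 to SRSF6 went from 0.482 ± 0.0181 to 0.722 ± 0.0112, and that of SRSF8 to SRSF2 from 0.185 ± 0.00758 to 0.287 ± 0.0177.

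SRSF1 (ASF/SF2), the prototype of the family, had 133, 108 and 126 CPM in siControl cultures and 148, 147 and 151 CPM with siZEB1, a log2 difference of 0.28 (SE 0.073, adjusted p = 0.00513, edgeR). The siControl cultures were more spread than the siZEB1 cultures, and the groups did not overlap. In GENCODE, AC015813.2 on the same strand shares 56.6% of the exonic bases of SRSF1. If the authors' annotation, which is not given, also held AC015813.2, the SRSF1 count depends on how shared reads were treated. The deposited counts list no gene named AC015813.2. SRSF11, a distant member of the family, rose from 189 ± 10.6 to 215 ± 8.94 CPM, a log2 difference of 0.18 (adjusted p = 0.0234, edgeR). That call was lost in 4 of the 6 fits with a culture left out, with adjusted p-values of 0.0724 and 0.0683 without siControl replicates 2 and 3 and 0.0582 and 0.0805 without siZEB1 replicates 1 and 3.

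SRSF7 (9G8), which also takes part in mRNA export, had 234, 234 and 239 CPM in siControl cultures and 178, 193 and 175 CPM with siZEB1, a log2 difference of -0.37 (SE 0.059, adjusted p = 8.02e-05, edgeR). SRSF10, which acts as a splicing repressor when dephosphorylated, had 260, 245 and 220 CPM and then 198, 187 and 218 CPM, a log2 difference of -0.27 (SE 0.071, adjusted p = 0.00618, edgeR). The groups were well apart for SRSF7, while the lowest siControl and the highest siZEB1 value of SRSF10 nearly met. SRSF3, which also links splicing to export, was at 543 ± 12.5 and 570 ± 9.17 CPM (log2 fold change 0.07, adjusted p = 0.285), without overlap. SRSF5 (0.02) and SRSF9 (0.01) were not called either, and opposite-strand genes cover 36.7% of SRSF2 (MFSD11) and 46.2% of SRSF9 (GATC). SRSF12 was below the filter, with 0 reads in each siControl culture and 1, 1 and 2 reads with siZEB1. Summed SR transcripts were at 2175 ± 38.4 CPM in siControl cultures and 2237 ± 31.9 CPM with siZEB1.

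Every SR gene carries at least 1 annotated transcript of the nonsense-mediated decay type in GENCODE, 12 of 12, against 13 of the 21 hnRNP genes (61.9%) and 42.9% of tested protein-coding genes. Many SR proteins and hnRNPs tune their own RNA level by splicing in such poison exons. Gene counts pool these transcripts with the coding ones, so a rise or fall here does not say which of them changed.

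The PTBP proteins bind pyrimidine-rich tracts and repress exons, with PTBP2 known as the neuronal paralog. PTBP1 had 863, 837 and 864 CPM in siControl cultures and 965, 948 and 943 CPM with siZEB1, a log2 difference of 0.16 (SE 0.048, adjusted p = 0.0144, edgeR). PTBP2 had 15.8, 14.1 and 15.6 CPM and then 19.7, 19.7 and 18.4 CPM, a log2 difference of 0.35 (SE 0.090, adjusted p = 0.00522, edgeR). Both genes had all siZEB1 values above all siControl values, but the PTBP1 call was lost without siControl replicate 2 (adjusted p = 0.0791) and without siZEB1 replicate 1 (adjusted p = 0.0763, edgeR). PTBP3 had 155, 140 and 130 CPM and then 147, 151 and 173 CPM, which overlapped, and was not called (0.15, adjusted p = 0.136), though it was without siControl replicate 1 (0.21, adjusted p = 0.0407, edgeR). Per length, PTBP2 was far below PTBP1 in every culture, with ratios of 0.00942 ± 0.000414 and 0.0108 ± 0.000331.

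RBFOX2, QKI and the MBNL proteins are regulators often discussed in epithelial and mesenchymal splicing. RBFOX2, which reads UGCAUG, had 129, 136 and 126 CPM in siControl cultures and 147, 148 and 160 CPM with siZEB1, a log2 difference of 0.22 (SE 0.062, adjusted p = 0.0098, edgeR). QKI, which promotes circular RNA formation and mesenchymal exon choices, had 92.4, 80.9 and 79.7 CPM and then 84.5, 80.2 and 103 CPM, a log2 difference of 0.08 (SE 0.088, adjusted p = 0.501). RBFOX2 was higher in every siZEB1 culture, while QKI overlapped and its highest value was a single siZEB1 culture. CELF1, which binds GU-rich elements, was at 311 ± 10.1 and 345 ± 22.7 CPM (0.15, SE 0.060, adjusted p = 0.0533), and lay close to the threshold. It was called in 3 of the alternatives, namely without siZEB1 replicate 2 (0.20, adjusted p = 0.0242), with median-of-ratios size factors (0.16, adjusted p = 0.0426) and with at least 10 counts in every culture (0.15, adjusted p = 0.0494, edgeR). MBNL1 (-0.05, adjusted p = 0.617) and MBNL2 (-0.11, adjusted p = 0.444), which bind YGCY motifs, were not called. MBNL3 was below the filter, at 6, 7 and 8 reads in siControl cultures and 3, 4 and 15 reads in siZEB1 cultures. TRA2A (-0.03, adjusted p = 0.760) and TRA2B (-0.08, adjusted p = 0.277), which bind purine-rich enhancers, were not called.

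**Figure D3:**
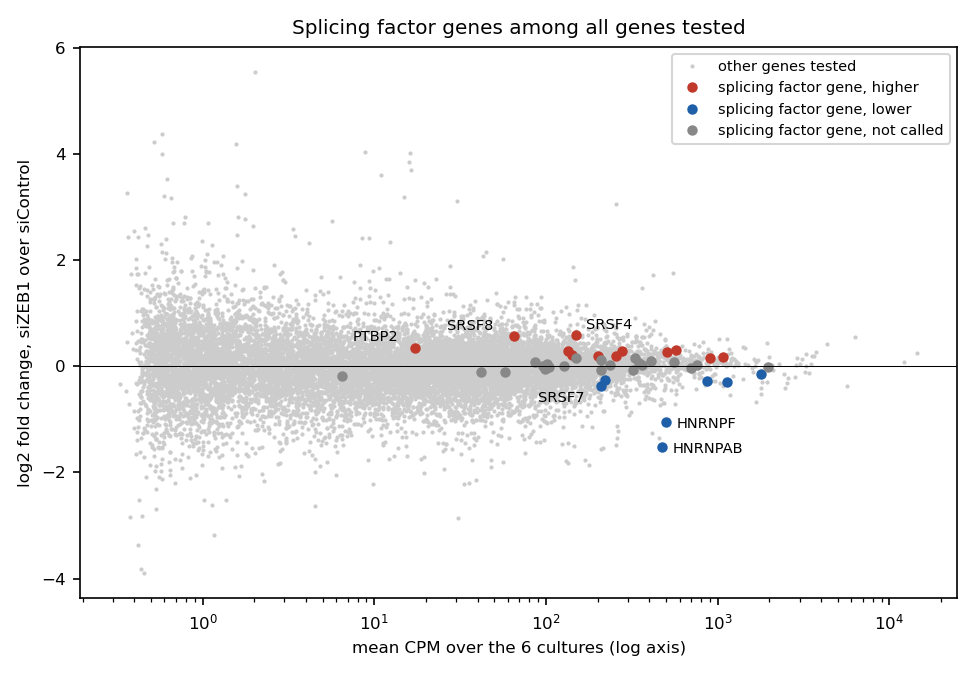
Log2 fold change (siZEB1 over siControl) against mean CPM over the 6 cultures (log axis) for all 14996 genes tested, with the 42 splicing factor genes in colour. Of the 42, 33 sit at 100 CPM or more, most of them close to 0, and HNRNPAB (-1.52) and HNRNPF (-1.04) lie below them.

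The GAACACA word was found in a similar share of splicing factor genes (9.52%) and of all 12316 tested genes with an annotated 3′UTR (11.2%). Of the 4 splicing factor genes that hold it, 3 fell, none rose and CELF1 was not called, with a median log2 fold change of -0.67. Of the other 38, 4 fell (10.5%) and 12 rose (31.6%), with a median of 0.03. Over all tested genes, those holding the word had a median of -0.23, with 45.2% lower and 12.6% higher, and those without it had a median of 0.01, with 21.3% lower and 21.8% higher. Genes with the word also had longer 3′UTRs, at a median of 2900 against 960 bases, so the 540 bases of HNRNPAB were short for a gene that holds it. The word was picked from genes that fell in these same cultures, so the lower values of its holders are not independent of that choice. The part of the word in these changes was not tested.

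The transcript chosen for each gene mattered at some genes and not at others. All 7 annotated HNRNPAB 3′UTRs and all 5 of HNRNPF held the word, against 2 of 10 for HNRNPU and 4 of 7 for CELF1. By any annotated transcript, SRSF10 (2 of 7, lower), HNRNPA3 (1 of 4, not called), HNRNPUL1 (1 of 9, not called) and MBNL3, which was below the filter, also held it. Extended by the T found before the word in all 4 printed sites, the 8-base TGAACACA lay in the 3′UTR of 518 tested genes (4.21%). Of these, 47.9% were lower, with a median of -0.27. The T was read off these sites, and the word was picked from genes that fell, so these values are not independent of that choice.

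**Figure D4:**
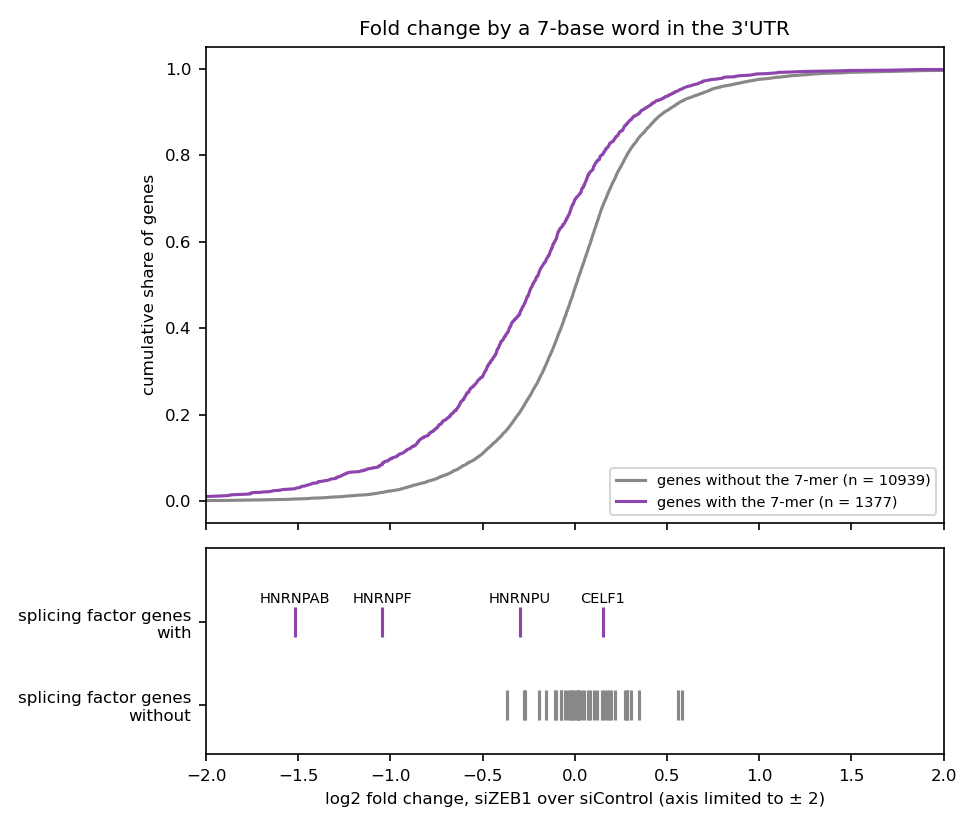
Cumulative share of genes by log2 fold change (upper panel, axis limited to ± 2) for tested genes with (n = 1377) and without (n = 10939) the 7-base word in the 3′UTR, and the splicing factor genes as ticks (lower panel). The curve of genes with the word lies to the left, at a median of -0.23 against 0.01. The word was picked from genes that fell in these cultures, so this shift is not independent of that choice. HNRNPAB, HNRNPF and HNRNPU are among the ticks with the word.

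The partners of these proteins were taken from 6 companion lists. The first held hnRNP-like RNA-binding proteins that lack an HNRNP symbol. Of 28 tested, 13 were lower (46.4%, against 21.2% of all genes and 22% of those with at least 100 CPM). Another 5 were higher (17.9%, against 19% and 25.7%), with 3 higher without siControl replicate 2 and 2 without siZEB1 replicate 1. The median of the 28 was -0.14 on the log2 scale. RALY, a relative of HNRNPC, fell from 366 ± 21.6 to 156 ± 12.9 CPM (-1.23, SE 0.068, adjusted p = 4.96e-10, edgeR). PCBP4, a KH-domain protein related to HNRNPK, fell by 0.63 on the log2 scale, and MSI1 by 1.43 from 0.860 ± 0.162 CPM, where few reads were counted. Of 23 SR-related coactivators, 6 were higher (26.1%, against 19% of all genes and 25.7% of those with at least 100 CPM). Only 1 was lower (4.35%, against 21.2% and 22%). On the log2 scale LUC7L2, a U1-associated protein, was at 0.73, RNPS1, of the exon junction complex, at 0.68 and CLASRP at 0.24. The number of higher coactivators was 3 without siControl replicate 1 or 2 or without siZEB1 replicate 1 or 2, and CLASRP lost its call in each of these fits, with adjusted p-values from 0.0571 to 0.0791 (edgeR).

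Among 17 kinases, phosphatases and import receptors that act on SR proteins, 5 were higher (29.4%, against 19% of all genes and 25.7% of those with at least 100 CPM). Another 2 were lower (11.8%, against 21.2% and 22%). SRPK2, a cytoplasmic SR protein kinase, fell from 130 ± 10.6 to 86.8 ± 7.20 CPM (-0.59). The phosphatase subunits PPP1CB and PPP1CC rose by 0.55 and 0.49 on the log2 scale, and PPP1R8 by 0.43. PPP1CA, another phosphatase subunit, fell from 365 ± 21.0 to 319 ± 14.5 CPM (-0.20, adjusted p = 0.0138, edgeR). Without siZEB1 replicate 2 or 3 the number higher was 3, and without siZEB1 replicate 3 the number lower was 1. Of 71 core spliceosome genes, 22 were higher (31.0%, against 19% of all genes and 25.7% of those with at least 100 CPM) and 5 lower (7.04%, against 21.2% and 22%), with a median of 0.10. ISY1 (1.07) and PRPF3, a U4/U6 snRNP protein (0.73), were the largest rises and USP39 (-1.01), which joins the tri-snRNP to the spliceosome, the largest fall. SF3B1, the U2 snRNP subunit that contacts the branch site, fell by 0.62. The other SF3B genes did not fall with it: SF3B2 (0.54) and SF3B3 (0.14) were higher, and SF3B4, SF3B5 and SF3B6 were not called.

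Of 21 other regulators of alternative splicing, 5 were higher (23.8%, against 19% of all genes) and 2 lower (9.52%, against 21.2%). ESRP1, the epithelial splicing regulator, was counted at 5, 6 and 6 reads in siControl cultures and 50, 46 and 71 reads in siZEB1 cultures, a log2 difference of 3.40 (SE 0.33, adjusted p = 3.58e-07, edgeR), so its level stayed low at 2.92 ± 0.698 CPM. Its paralog ESRP2 rose from 56.0 ± 1.39 to 75.3 ± 2.63 CPM (0.43, adjusted p = 6.03e-05, edgeR), and RBPMS2 fell by 1.04. RBM47, which also favours epithelial exons, was at 0.33 (adjusted p = 0.118) and was called without siControl replicate 1 (0.51, adjusted p = 0.0213, edgeR). Among 18 nonsense-mediated decay factors, 5 were higher (27.8%, against 19% of all genes and 25.7% of those with at least 100 CPM). Another 6 were lower (33.3%, against 21.2% and 22%), with RBM8A (0.74), MAGOH (-0.48) and NBAS (-0.39) changing most. RBM8A and MAGOH encode the partners of 1 heterodimer in the exon junction complex. Without siZEB1 replicate 1 the number of decay factors that were higher was 3.

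**Figure D5:**
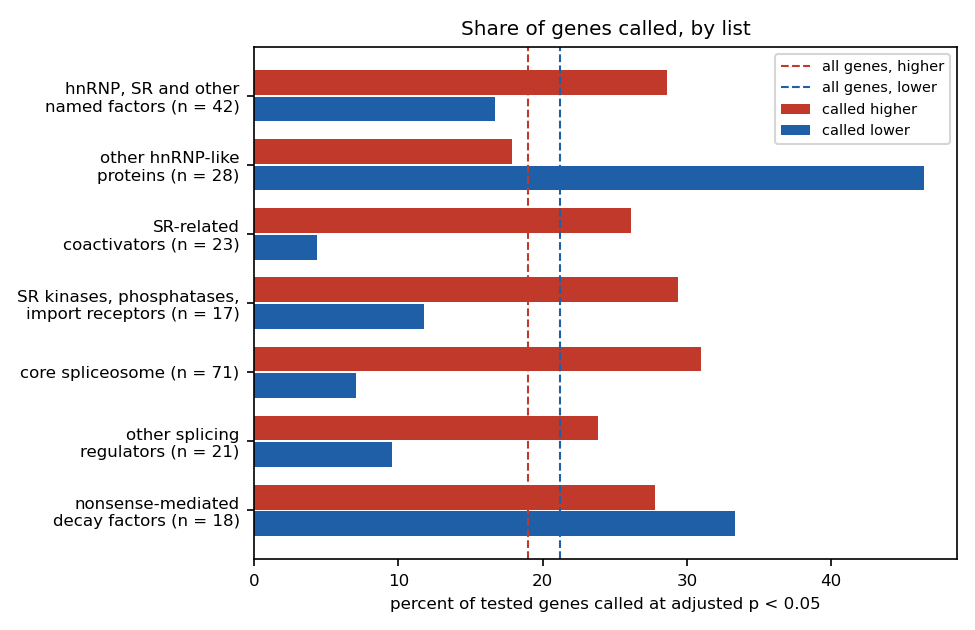
Percent of tested genes called higher (red) and lower (blue) at an adjusted p under 0.05 in edgeR's test, for the 42 splicing factor genes and 6 companion lists, with dashed lines at the shares over all genes (19% higher, 21.2% lower). The hnRNP-like list reaches 46.4% lower, and the core spliceosome list 31.0% higher and 7.04% lower.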

How the data were processed

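Raw read counts per gene, deposited by the authors as 1 table for each of the 6 cultures, were used as given. The submitters' processing notes name Trimmomatic, HISAT2, SAMtools, featureCounts and hg38, without versions, and the annotation and strand setting of the counting are not given in the sources used here, so opposite-strand reads may be mixed. Genes were filtered with filterByExpr, scaled by TMM and compared with edgeR 4.0.16 (glmQLFit and glmQLFTest, limma 3.58.1, R 4.3.3), over 14996 genes with Benjamini-Hochberg adjustment. The biological coefficient of variation was 6.58%. CPM use TMM library sizes, and levels per length use GENCODE 29 union exonic bases. DESeq2 1.42.0 was an alternative, and the fit was tested on simulated data. Pairs of cultures within a group differed beyond sampling noise. Total counts of 19040636 to 22357633 set the depth.

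The members, lists, 7-base word and abundance limit were chosen with earlier results of these data known. Named genes were ZEB1, HNRNPAB, every called member, a fixed set of well-studied members, and up to 3 called genes of each companion list, besides ESRP1, ESRP2 and RBM47. The SF3B genes, PPP1CA and PPP1R8 were named after their values were seen. Where a symbol had more than 1 row (MATR3), the row with more reads was used. No correlation with HNRNPAB across cultures is reported, since the groups form separate clusters. The files hold no fold changes or p-values of the authors.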

Additional observations from a re-analysis of the deposited data

How the results depend on the processing

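Of the 19 calls among splicing factor genes, 13 were kept in all 12 alternatives that keep the rule on the adjusted p: DESeq2 size factors in edgeR, total counts as library size, no filter, at least 10 counts in every culture, DESeq2 itself, a replicate block and each culture left out. The calls of HNRNPA1, PTBP1, HNRNPC, SRSF11, HNRNPH3 and RBFOX2 were lost in at least 1. HNRNPC (adjusted p = 0.0604) and RBFOX2 (adjusted p = 0.0610) lost theirs only with the replicate block in edgeR. Same-numbered cultures did not deviate together (correlations of -0.0517, -0.0883 and -0.200). With 3 cultures a group, these values cannot settle whether same-numbered cultures shared a batch. With the replicate block, 7 splicing factor genes were higher and 6 lower, 2 hnRNP-like genes were higher, 3 SR-related coactivators were higher and 0 lower, 3 kinase-list genes were higher and 1 lower, and 3 decay factors were higher. Without a filter, 3 decay factors were higher.

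Under the rule of a change past 1.5-fold at an unadjusted p under 0.05, 1081 genes were higher and 1402 lower. The counts higher and lower were then 0 and 2 for splicing factor genes, 0 and 3 for hnRNP-like genes, 2 and 0 for SR-related coactivators, 0 and 1 for the kinase list, 3 and 2 for the core spliceosome, 1 and 1 for other regulators, and 1 and 0 for decay factors. With 1 culture left out, 9 to 13 splicing factor genes were higher and 6 to 7 lower, 2 to 5 hnRNP-like genes were higher, 3 to 7 coactivators were higher and 0 to 2 lower, 3 to 5 kinase-list genes were higher and 1 to 3 lower, and 3 to 4 decay factors were higher.

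Changes of direction were limited to genes that were not called. SRSF6 was at 0.0026 with DESeq2 size factors in edgeR and 0.0027 with DESeq2 itself. Leaving out 1 culture moved the log2 fold change from -0.0533 to 0.0232 for HNRNPA2B1, from -0.0142 to 0.0412 for HNRNPH1, from -0.0383 to 0.0223 for HNRNPLL, from -0.0093 to 0.0334 for HNRNPUL1, from -0.127 to 0.0028 for MBNL1, from -0.233 to 0.0028 for MBNL2, from -0.0319 to 0.150 for QKI, from -0.0145 to 0.0331 for SRSF5, from -0.0303 to 0.0337 for SRSF6, from -0.0096 to 0.0431 for SRSF9 and from -0.0756 to 0.0204 for TRA2A. The causes were not tested. ESRP1 and MSI1 gave no value with at least 10 counts in every culture. Depth limits MBNL3, SRSF12, ESRP1 and MSI1, and 3 cultures a group limit the smallest changes.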
